A study of Mus musculus with 6 samples.

Results

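The genes described here are 10 transcription factors that B cells and plasma cells are known for: Foxp1, Pax5, Ebf1, Bach2, Ikzf3, Spib, Pou2af1, Irf4, Prdm1 and Xbp1. They were selected with their levels on these arrays already known, so their values are given as a description and carry no test. All probe sets annotated to them were taken, which gave 30 of the 45037 probe sets measured (10 of 18193 genes), and none of the 30 named another gene as well. Levels were read on 6 Affymetrix mouse genome arrays, and every level below is a log2 value after normalization across the arrays, so that a difference of 1 is a factor of 2. The 3 groups were female NOD mice, which become diabetic through spontaneous autoimmunity: untreated non-diabetic mice, untreated diabetic mice, and non-diabetic mice that had received trichostatin A (TSA), an inhibitor of histone deacetylases. TSA was given under the skin once a week at 500 µg/kg between 18 and 24 weeks of age, and per the methods only treated mice without diabetes entered that group. The untreated groups were not injected with the solvent, so TSA and its injection cannot be told apart. The labels give an age of 32 to 36 weeks for every group, whereas the methods give younger ages for diabetic and TSA-treated mice and slightly larger pools. Spleen RNA of 3 to 5 mice per the labels was pooled in each group, and the 2 arrays of a group are separate labelings of that 1 pool. The spread between them is therefore technical, and it does not cover differences between mice.

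B cells are made in the bone marrow under Ebf1 and Pax5, which switch on the B cell program and hold it. In mature splenic B cells Foxp1, Bach2, Ikzf3, Spib and Pou2af1 set survival, the response to the B cell receptor and entry into the germinal center. When a B cell becomes a plasma cell, Irf4 and Prdm1 shut that program down and Xbp1 builds the secretory apparatus for antibody. In RNA of a whole spleen, fewer cells of a type and less RNA per cell cannot be told apart.

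The second TSA array stood apart from the rest and must be known before the values are read. The RNA ends were compared through beta-actin, whose 3′ and 5′ probe sets differ more when RNA or labelled product is shorter. This gap in log2 level was 2.35 and 2.05 on the untreated non-diabetic arrays, 2.42 and 3.32 on the diabetic arrays, and 3.45 and 5.61 on the TSA arrays. The untreated non-diabetic arrays were thus the tightest, and the second diabetic array resembled the first TSA array. The correlation across all probe sets between the 2 arrays of a group was 0.993 for the untreated non-diabetic pool, 0.973 for the diabetic pool and 0.966 for the TSA pool, and it was 0.990 between the second diabetic and the first TSA array. The 3′ to 5′ gap therefore moved with the groups, and its part in the differences below was not tested. Most printed differences of members and lists that the second diabetic or the second TSA array moved by over 1.5 times are given without that array as well.

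Foxp1, a forkhead factor needed for B cell development and for the survival of mature B cells, had the most probe sets, 8. RefSeq, on mouse build GRCm38.p6, gives 3 start sites of this gene whose upstream sequence could be read, and they are shown because the arrays read a gene with several starts. Each window is the 250 bases before the start, read 5′ to 3′ on the minus strand of chromosome 6, and capitals mark letters that match a searched motif. They are chr6:99028299-99028548, chr6:99266516-99266765 and chr6:99520994-99521243 in that order.

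Foxp1 window at 99028299: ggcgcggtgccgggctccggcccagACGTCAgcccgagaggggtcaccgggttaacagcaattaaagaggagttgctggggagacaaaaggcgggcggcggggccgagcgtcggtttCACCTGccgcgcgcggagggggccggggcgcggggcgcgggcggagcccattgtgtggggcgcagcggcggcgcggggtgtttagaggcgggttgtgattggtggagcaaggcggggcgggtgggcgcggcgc

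Foxp1 window at 99266516: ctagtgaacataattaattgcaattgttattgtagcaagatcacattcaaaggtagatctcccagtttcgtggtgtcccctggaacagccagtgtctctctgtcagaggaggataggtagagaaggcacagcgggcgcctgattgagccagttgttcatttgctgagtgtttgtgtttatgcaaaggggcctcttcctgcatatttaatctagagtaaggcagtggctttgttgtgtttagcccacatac

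Foxp1 window at 99520994: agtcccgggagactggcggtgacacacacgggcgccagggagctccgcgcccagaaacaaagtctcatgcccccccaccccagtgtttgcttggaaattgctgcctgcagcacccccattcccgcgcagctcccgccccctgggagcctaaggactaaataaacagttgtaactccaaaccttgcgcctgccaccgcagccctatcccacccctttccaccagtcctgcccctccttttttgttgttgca

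The first Foxp1 window was rich in G and C, at 74% against a median of 52.4% over 32851 windows of this length, and held an E box match (CACCTG, the reverse complement of CAGGTG) and the core of cAMP and unfolded protein response elements (ACGTCA, the reverse complement of TGACGT). Read on both strands, CAGGTG occurred in 17.2% and TGACGT in 6.47% of all windows. The other two Foxp1 windows, with 45.2% and 60.8% G and C, held none of the 9 motifs searched. A match is only a match of letters, and the arrays did not measure which start was used.

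All 8 Foxp1 probe sets had their highest mean in untreated non-diabetic mice, an intermediate mean in diabetic mice and their lowest mean in TSA-treated mice. The brightest, 1435222_at, read 10.47 and 10.46 in untreated non-diabetic mice, 9.83 and 9.84 in diabetic mice, and 9.28 and 9.40 in TSA-treated mice. The duplicates of this probe set lay close together and no 2 groups overlapped. The diabetic mean was 0.63 lower than the untreated non-diabetic mean (standard error 0.15), which is 1.55-fold, and the TSA mean was 1.13 lower, which is 2.19-fold. Probe set 1435221_at showed the same order with no overlap, at 8.91 and 8.99, 8.53 and 8.43, and 7.84 and 7.73. Its difference from untreated non-diabetic mice was -0.47 in diabetic and -1.16 in TSA-treated mice.

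Probe set 1438802_at of Foxp1 read 8.38 and 8.35 in untreated non-diabetic, 7.26 and 7.03 in diabetic, and 6.38 and 6.52 in TSA-treated mice. The groups did not overlap here either, and with the second TSA array left out the TSA difference was -1.98 in place of -1.92. On the linear scale this was 2.33-fold lower in diabetic and 3.78-fold lower in TSA-treated mice. Of the 30 probe sets it was the one called lower in TSA-treated mice by limma at an adjusted p under 0.05, a call held by 0.0688% of all probe sets in either direction and by 0.0111% as lower. Since Foxp1 was chosen on these arrays, nothing is read from that call. It was lost when either untreated non-diabetic array was left out, where calls in this comparison were lost over all probe sets. The call was also lost without the second TSA array. A replicate block, quantile normalization again, a filter on dim probe sets, an intensity trend or the methods' t-test ended it as well.

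The other 5 Foxp1 probe sets had wider duplicates in at least 1 group. Probe set 1421140_a_at read 8.36 and 8.61, then 7.81 and 7.44 in diabetic and 7.65 and 7.19 in TSA-treated mice. Diabetic and TSA-treated mice overlapped in it, with a difference of 0.20. It was -0.03 without the second TSA array and 0.39 without the second diabetic array. Probe set 1455242_at read 8.80 and 9.23 in untreated non-diabetic, 8.56 and 7.31 in diabetic, and 7.54 and 5.42 in TSA-treated mice. Probe set 1421141_a_at went with it almost exactly across the 6 arrays (r = 0.998), at 6.35 and 7.09, 6.24 and 4.76, and 5.15 and 2.78. In both, the second TSA array was the lowest of all and the second diabetic array lay below the first TSA array. Without the second TSA array the TSA differences from untreated non-diabetic mice were -1.47 in place of -2.53 for 1455242_at and -1.56 in place of -2.75 for 1421141_a_at. Probe set 1421142_s_at read 7.06 and 7.59, 6.69 and 5.38, and 5.48 and 5.10. Probe set 1443258_at read 6.40 and 6.84, 5.64 and 3.81, and 4.16 and 4.45, and had the widest diabetic duplicates of the 8. Every Foxp1 probe set thus read lower in diabetic than in untreated non-diabetic mice without overlap, which held for 19.4% of all probe sets. The same was true of TSA-treated mice, against 21.5% of all. Diabetic mice lay above TSA-treated mice without overlap in 3 of the 8, against 11.4% of all.

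**Figure D1:**
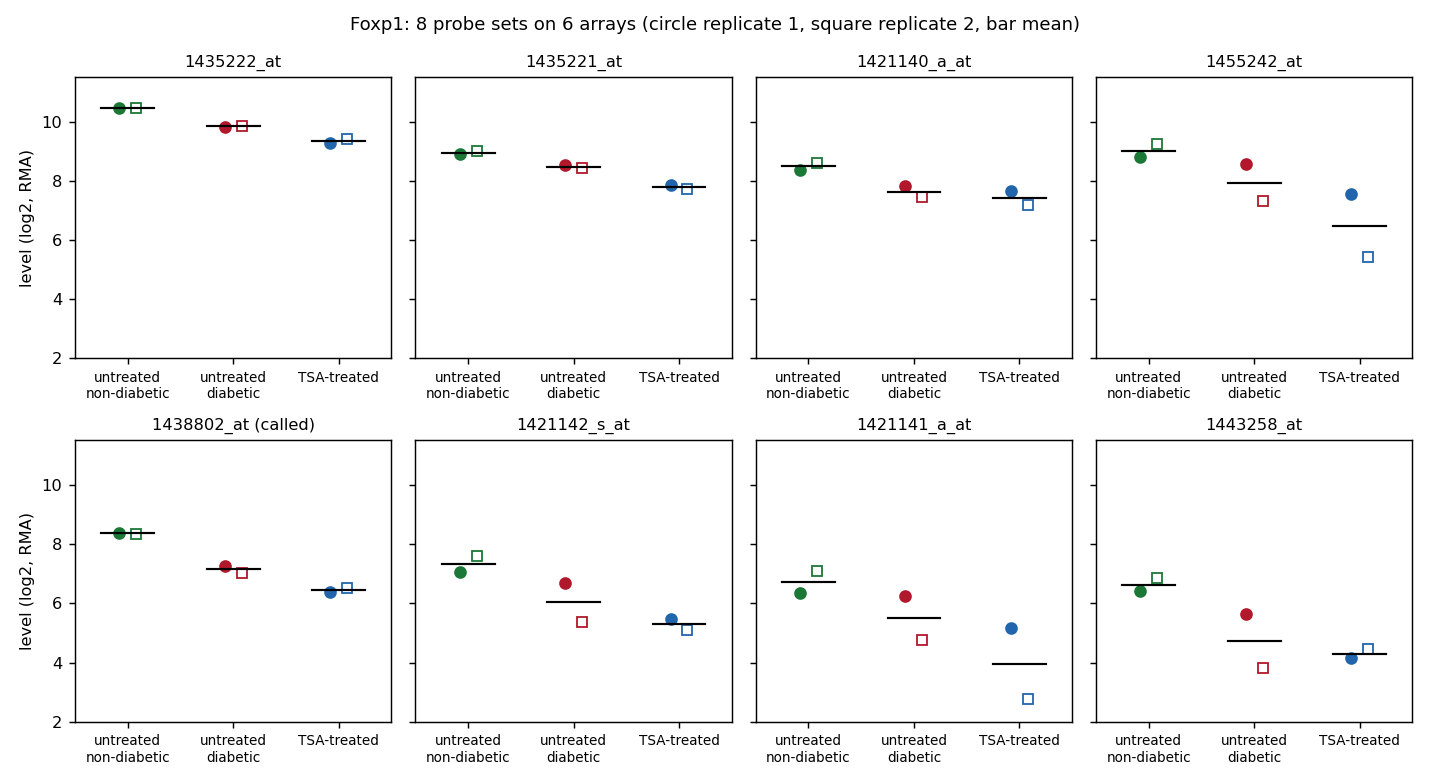
Level of each of the 8 Foxp1 probe sets (log2, vertical axis) on the 2 arrays of each group, with a circle for the first array, a square for the second and a bar at the group mean. Each panel steps down from untreated non-diabetic over diabetic to TSA-treated mice, and the 2 arrays of a group are nearly equal in 1435222_at, while in 1421141_a_at the TSA arrays stand at 5.15 and 2.78.

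The factors that fix B cell identity read differently on their own probe sets. Pax5, which commits a precursor to the B lineage, read 6.22 and 6.2 in untreated non-diabetic, 5.76 and 4.99 in diabetic, and 5.20 and 5.60 in TSA-treated mice on 1454401_at. Both other groups lay below untreated non-diabetic mice without overlap, by 0.84 and 0.81, and they overlapped each other. Without the second diabetic array the diabetic difference was -0.45. Its other probe set, 1421765_at, lay under the median level of all probe sets, 3.89, and read between 3.17 and 3.53 on all 6 arrays, with overlapping groups.

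Ebf1, which acts before and together with Pax5, had 5 probe sets. The brightest, 1416301_a_at, read 9.13 and 8.97 in untreated non-diabetic, 8.10 and 6.35 in diabetic, and 6.54 and 6.0 in TSA-treated mice. Diabetic mice were lower by 1.82 (standard error 0.55) and TSA-treated mice by 2.78, the diabetic duplicates differed by more than 1, and diabetic and TSA-treated mice overlapped. Without the second diabetic array the diabetic difference on this probe set was -0.94. Probe set 1416302_at had the same order, at 6.68 and 6.83, 6.10 and 5.34, and 5.36 and 4.70. The other probe sets of the gene gave another picture. Probe set 1448293_at read 7.35 and 7.26, 7.03 and 7.33, and 7.22 and 5.42, so that only the second TSA array was far below the others, and without it the TSA difference was -0.09. Probe set 1439789_at read 6.39 and 6.48, 6.08 and 6.80, and 5.81 and 5.97, with diabetic and untreated non-diabetic means within 0.01 of each other, and a diabetic difference of -0.35 without the second diabetic array. The dim 1457441_at read between 2.78 and 3.32 and was the single member probe set whose TSA mean lay above the untreated non-diabetic mean, by 0.23, which was -0.01 without the second TSA array.

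Among the factors of mature B cells, Bach2, a repressor that delays plasma cell formation by holding down Prdm1, was lower in TSA-treated mice on its 2 bright probe sets. Probe set 1436515_at read 8.47 and 8.33 in untreated non-diabetic, 7.70 and 8.14 in diabetic, and 7.28 and 7.10 in TSA-treated mice. The groups did not overlap, and the differences from untreated non-diabetic mice were -0.48 and -1.21 (standard error 0.21). Probe set 1437667_a_at read 9.14 and 9.04, 8.41 and 6.88, and 7.57 and 4.92. Its duplicates lay far apart in diabetic and TSA-treated mice, and the TSA difference of -2.85 became -1.52 without the second TSA array. The third, 1445460_at, read between 4.0 and 5.05 with overlapping groups.

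The window before the Bach2 start, chr4:32417185-32417434 on the plus strand of GRCm38.p6, is shown because it holds a match to the composite site of PU.1 or its relative Spib with an IRF factor, among them Irf4, so that 2 of the members belong to families that read it.

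Bach2 window at 32417185: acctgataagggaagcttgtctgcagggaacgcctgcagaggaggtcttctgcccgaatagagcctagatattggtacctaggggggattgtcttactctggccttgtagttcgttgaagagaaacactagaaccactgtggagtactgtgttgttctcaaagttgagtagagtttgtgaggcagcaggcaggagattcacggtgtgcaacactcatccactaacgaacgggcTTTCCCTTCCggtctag

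The capitals hold, on the other strand, GGAA and GAAA with 2 free bases between them, a spacing that 2.30% of all windows held, and lie 17 to 8 bases before the start. No binding was measured here.

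Ikzf3, the Ikaros family factor Aiolos, is expressed in B cells and rises as they mature. Probe set 1436649_at read 8.88 and 8.93 in untreated non-diabetic, 8.55 and 8.55 in diabetic, and 8.27 and 8.35 in TSA-treated mice. These were small steps between tight duplicates, at -0.36 and -0.60 from untreated non-diabetic mice (standard error 0.15), and no 2 groups overlapped. Its dimmer probe sets read 4.76 to 5.30 (1441088_at, groups overlapping) and 2.54 to 3.68 (1453378_at, under the median level).

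Spib, an Ets factor close to PU.1 that B cells and plasmacytoid dendritic cells use, read 8.86 and 8.63 in untreated non-diabetic, 8.50 and 8.23 in diabetic, and 7.65 and 6.23 in TSA-treated mice. No groups overlapped, and the TSA difference was -1.81 with both TSA arrays and -1.10 with the first alone. Pou2af1 (OBF-1), the coactivator of Oct factors at immunoglobulin promoters, read 9.76 and 9.57, 9.21 and 9.88, and 9.40 and 8.25. Diabetic and untreated non-diabetic mice overlapped with a difference of -0.12, which was -0.46 without the second diabetic array, and the TSA difference of -0.84 was -0.27 without the second TSA array. For comparison, 5 markers of plasmacytoid dendritic cells were measured. Their summed level was 8.14 and 8.09, 8.29 and 8.24, and 7.91 and 8.11, while 4 of the 5 had a lower mean in TSA-treated than in untreated non-diabetic mice and 5 of 5 a lower mean in TSA-treated than in diabetic mice. The part of these cells in the Spib level was not tested.

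The plasma cell factors did not share 1 pattern. Irf4, which acts in a graded way in activated B cells and plasma cells, read 7.89 and 7.92 in untreated non-diabetic, 7.83 and 8.26 in diabetic, and 7.22 and 4.76 in TSA-treated mice on 1421173_at. Diabetic mice overlapped untreated non-diabetic mice, and both TSA arrays were lower, the second by far. The TSA difference of -1.91 (standard error 0.74) was -0.69 without that array. Its dim probe set 1421174_at read between 3.36 and 3.98. Prdm1 (Blimp-1), the repressor that ends the B cell program, read 5.41 and 5.36, 5.58 and 5.82, and 5.45 and 4.99. It was the 1 member probe set with both diabetic arrays above both untreated non-diabetic arrays, by 0.31 (standard error 0.21; 0.19 without the second diabetic array), while the TSA arrays lay on both sides of the untreated non-diabetic arrays.

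Xbp1, the factor of the unfolded protein response that plasma cells need to secrete antibody, was read by 4 probe sets. Probe set 1437223_s_at read 10.75 and 10.80 in untreated non-diabetic, 10.48 and 10.36 in diabetic, and 10.09 and 9.82 in TSA-treated mice. The groups did not overlap, and the differences from untreated non-diabetic mice were -0.36 and -0.82 (standard error 0.17). Probe set 1420886_a_at read 9.93 and 9.92, 9.50 and 9.38, and 9.26 and 5.95, the widest pair of duplicates among the 30 probe sets. The TSA difference on it was -2.31 with both arrays and -0.66 with the first alone. Probe set 1420011_s_at read 8.99 and 9.04, 8.86 and 8.70, and 8.63 and 6.88, and 1420012_at read between 5.74 and 6.38. Xbp1 is also strongly expressed in the acinar cells of the pancreas, and pancreatic enzyme RNA was present in 2 of the groups. The summed level of 11 exocrine pancreas markers was 8.27 and 8.22 in untreated non-diabetic, 14.80 and 14.78 in diabetic, and 12.28 and 12.32 in TSA-treated mice. Of these 11, limma called 11 higher in diabetic and 10 higher in TSA-treated mice than in untreated non-diabetic mice, led by Clps, the colipase gene, at 7.91 and 5.47. Without either untreated non-diabetic array, calls in TSA-treated mice were lost over all probe sets, these markers included. Between diabetic and TSA-treated mice all 4 Xbp1 probe sets read higher in diabetic mice without overlap, against 11.4% of all probe sets. The differences were 0.36 to 1.83 (0.15 to 0.43 without the second TSA array). The exocrine markers also read higher in diabetic mice, with a median difference of 2.44. Against untreated non-diabetic mice, 3 of the 4 Xbp1 probe sets read lower in diabetic mice and 1420012_at 0.14 higher (0.06 without the second diabetic array). The part of pancreatic RNA in the Xbp1 level was not tested.

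The window before the Xbp1 start, chr11:5520391-5520640 on the plus strand of GRCm38.p6, is shown because it holds an E box match (CAGGTG) that overlaps a match to the Ikaros family letters TGGGAA, on the other strand, in 1 run of capitals.

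Xbp1 window at 5520391: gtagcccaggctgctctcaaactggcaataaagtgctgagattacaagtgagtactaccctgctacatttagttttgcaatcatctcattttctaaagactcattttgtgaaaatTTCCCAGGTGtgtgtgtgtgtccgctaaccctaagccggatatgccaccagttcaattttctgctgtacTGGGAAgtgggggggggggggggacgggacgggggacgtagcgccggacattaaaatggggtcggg

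A further TGGGAA lies 66 to 61 bases before the start, and TGGGAA was found in 21.6% of all windows. Of the 10 genes, 9 had a window in the RefSeq table.

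**Figure D2:**
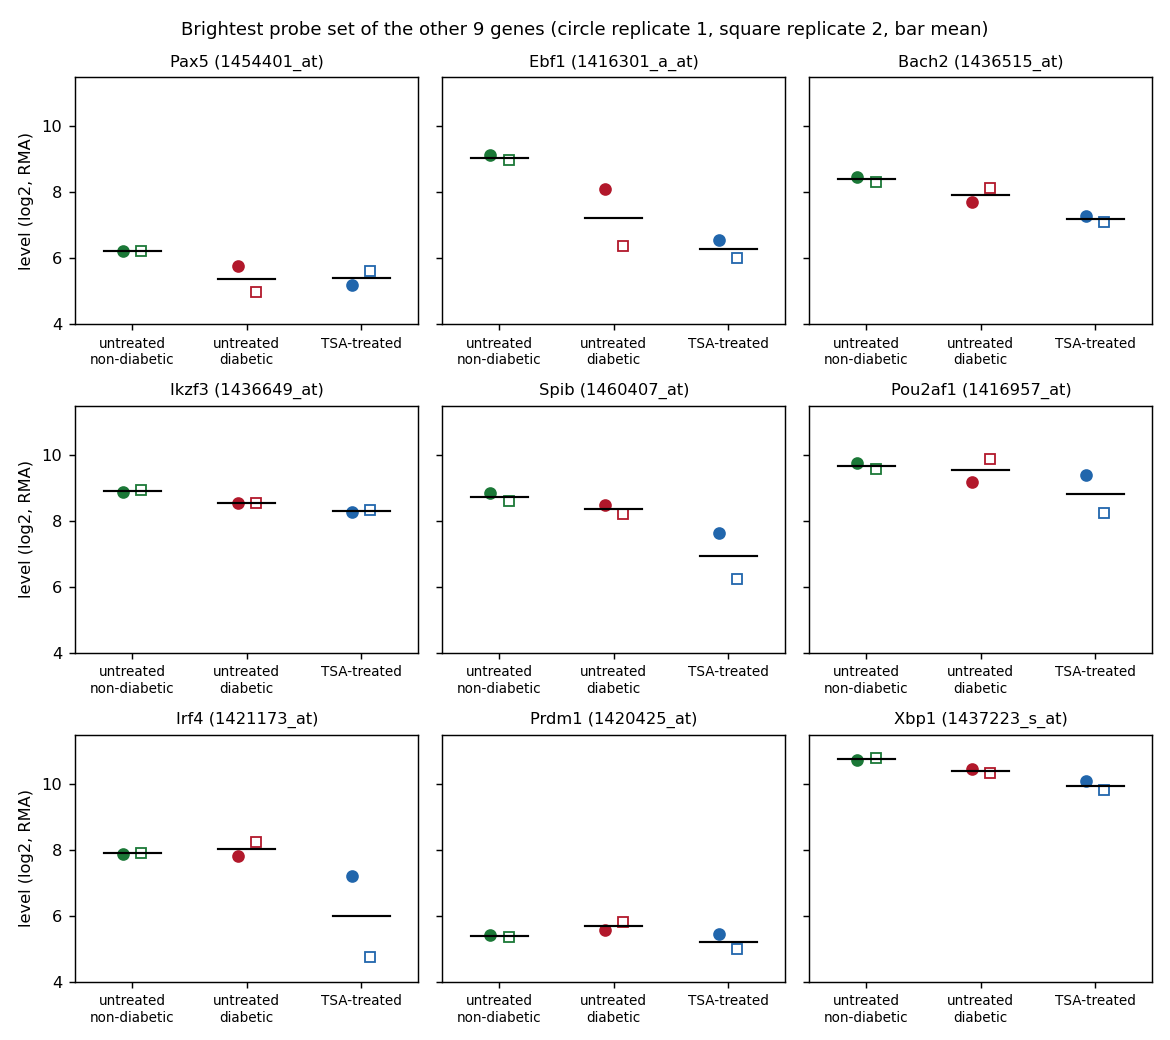
Level (log2, vertical axis) of the brightest probe set of each of the other 9 genes on the 2 arrays of each group (circle first array, square second, bar mean). Ikzf3 and the brightest Xbp1 probe set step down in tight pairs, while Irf4 reads 7.22 and 4.76 on the TSA arrays and Prdm1 is highest in diabetic mice.

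Over all 30 probe sets, 26 lay above the median level of the arrays. Between diabetic and untreated non-diabetic mice the mean was lower in 25 of the 30, with a median difference of -0.43 against 0.01 over all probe sets. In 20 both diabetic arrays lay below both untreated non-diabetic arrays, which held for 19.4% of all probe sets, and in 1 (Prdm1) above them, which held for 21.6%. None of the 30 was called by limma in this comparison, in which 0.0888% of all probe sets were, and the methods' t-test with Benjamini-Hochberg adjustment called 0. Between TSA-treated and untreated non-diabetic mice the mean was lower in 29 of the 30, with a median of -1.10 against 0.05 over all probe sets. In 23 both TSA arrays lay below both untreated non-diabetic arrays, against 21.5% of all probe sets. Of the 26 above the median level, 22 had a lower mean in diabetic and 26 in TSA-treated than in untreated non-diabetic mice. Over all probe sets above that level this held for 45.9% and 50.2%. Between diabetic and TSA-treated mice the diabetic mean was higher in 25, with a median of 0.62 that was 0.34 without the second TSA array. In 13 of these the arrays did not overlap, against 11.4% of all probe sets. In this comparison limma called 0 of the 30, against 0.0266% of all, and the methods' t-test called 0. The genes were chosen for such levels, so the distance from the background is a property of the choice. The 3 comparisons share their arrays and are not independent of each other.

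Untreated non-diabetic above diabetic above TSA-treated was the order of the means in 21 of the 30 probe sets, and in 20.4% of all probe sets. The second TSA array was the lowest of the 6 in 18 of the 30 and in 20.6% of all. Duplicates of the members differed by a median of 0.14 on the untreated non-diabetic, 0.36 on the diabetic and 0.48 on the TSA arrays, and by more than 1 in 0, 6 and 9 of the 30. How firmly a step can be read thus depended on the group, and over the 30 the TSA levels were the least precise. For the 8 Foxp1 probe sets the diabetic levels were. Their median gap was 0.81 on the diabetic and 0.33 on the TSA arrays, and 4 and 2 of them differed by more than 1.

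**Figure D3:**
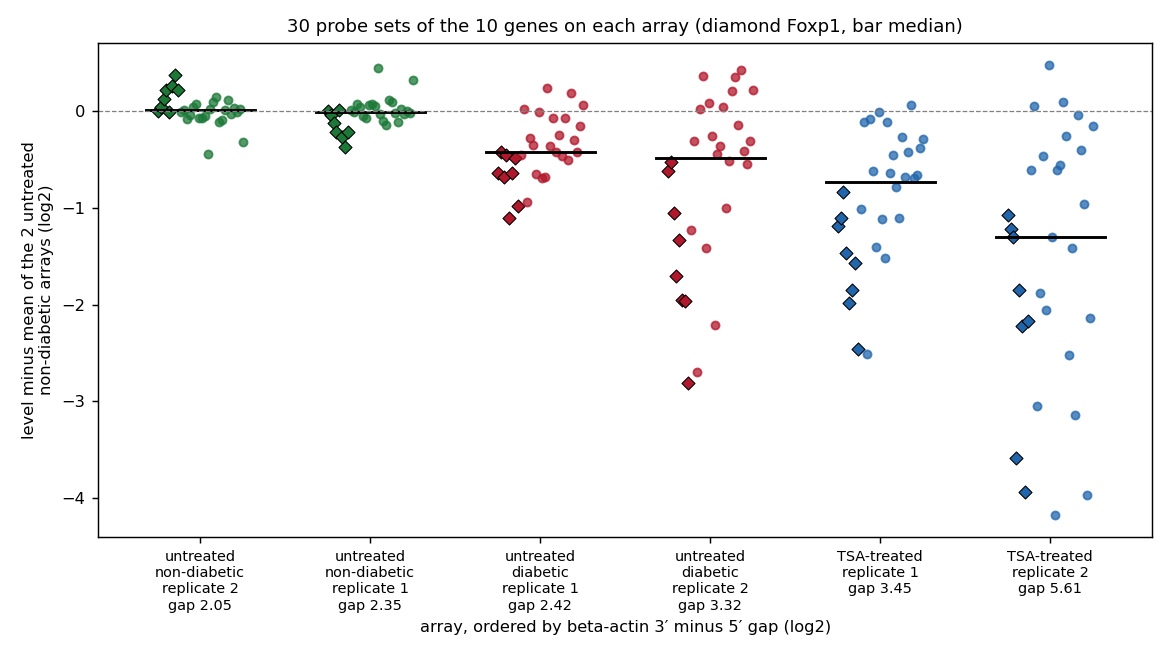
Each of the 30 probe sets on each of the 6 arrays as its log2 difference from the mean of the untreated non-diabetic arrays (vertical axis, diamonds Foxp1, bars the median), with the arrays ordered by their 3′ to 5′ gap of beta-actin (horizontal axis). The points sit lowest on the second TSA array, at the gap of 5.61, which was the lowest of the 6 in 18 of the 30 probe sets.

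After the values were seen, arrays with a like 3′ to 5′ gap of beta-actin were set side by side, as 1 array against 1 or 2 with no test. The first diabetic array, with a gap of 2.42, lay below both untreated non-diabetic arrays in 24 of the 30 probe sets, 8 of 8 for Foxp1, and this held for 35.0% of all probe sets. The median difference was -0.42 over the 30 against -0.43 between the group means, and for Foxp1 -0.64 against -1.15. The first TSA array lay below the second diabetic array, with gaps of 3.45 and 3.32, in 18 of the 30 and in 51.2% of all probe sets. The median difference between them was 0.11 in place of the 0.62 between the group means, and for Foxp1 the TSA array was the lower one in 3 of 8. These are single arrays, and the part of the gap in the group differences was not tested. By the 3′ to 5′ gap of Gapdh the paired arrays were less alike. That gap was 1.82 on the first diabetic array, against 2.67 and 1.91 on the untreated non-diabetic arrays. It was 3.19 on the second diabetic and 3.85 on the first TSA array. The first TSA array still lay below both untreated non-diabetic arrays in 26 of the 30, against 40.2% of all, with a median of -0.73, and no untreated non-diabetic array had a gap as wide.

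**Figure D4:**
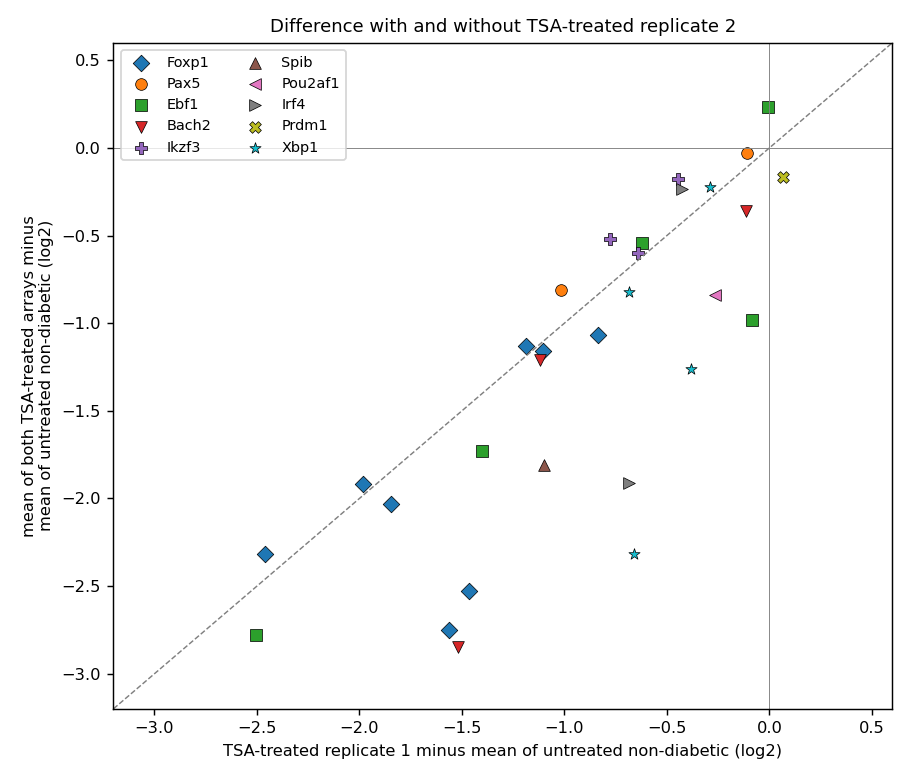
Difference in log2 level between TSA-treated and untreated non-diabetic mice for each of the 30 probe sets, with both TSA arrays (vertical axis) against the first TSA array alone (horizontal axis), where the dashed line marks equal values and symbols the genes. The largest shift is that of Xbp1 1420886_a_at, from -2.31 to -0.66, while Foxp1 1438802_at moves from -1.92 to -1.98.

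Further genes of the same pathways were taken as lists, each gene by its brightest probe set. Of 23 other transcription factors of the B lineage, limma called 0 in any of the 3 comparisons, and the methods' t-test 0. At an unadjusted p under 0.05, 4 were lower in diabetic and 9 lower in TSA-treated than in untreated non-diabetic mice. Over all genes by their brightest probe set, 6.74% in diabetic and 16.0% in TSA-treated mice reached that p in either direction. The median difference of this list was -0.22 in diabetic and -0.55 in TSA-treated mice, against 0.04 and 0.07 over all genes. Its 3 brightest genes lay far from that median in TSA-treated mice. Ets1, an Ets factor of lymphocytes, differed by -0.09. Lmo2, an adaptor of transcription factor complexes, differed by 0.39 (0.75 without the second TSA array). Ikzf1 (Ikaros) differed by 0.00 (0.12 without that array). Ikzf1 read 9.91 and 10.03, 9.86 and 10.16, and 10.08 and 9.86, so the founding gene of the Ikaros family overlapped between all groups where Ikzf3 did not. Among 6 other Foxp and Ikaros family genes 0 were called, with 1 lower in TSA-treated mice at an unadjusted p under 0.05 and a median TSA difference of -0.11 (-0.31 without the second TSA array). That lower gene was Ikzf2, the brightest of the 6, which read 8.40 and 8.58, 8.25 and 7.99, and 7.90 and 7.44. No 2 groups overlapped in Ikzf2, as in Ikzf3, and its TSA difference was -0.82 against -0.60 for Ikzf3. Foxp4, a relative of Foxp1, read 6.52 and 6.57, 6.29 and 5.86, and 6.22 and 6.67.

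The surface and signaling genes of B cells were taken as markers of B cell RNA, and each lay above the median level of all probe sets in every group. Of 19 measured, 0 were called, and all 19 had a lower mean in TSA-treated than in untreated non-diabetic mice. Of them, 15 were lower at an unadjusted p under 0.05, which 16.0% of all genes reached in either direction. The median of the 19 was -1.03, which was -0.59 without the second TSA array. Their differences ran from -0.42 to -3.10, and the largest was -1.96 without that array. Ms4a1 (CD20) read 11.52 and 11.47 in untreated non-diabetic, 11.46 and 11.36 in diabetic, and 10.90 and 9.60 in TSA-treated mice, a difference of -1.24 that was -0.59 without the second TSA array. Their summed level was 14.02 and 13.97, 13.78 and 13.96, and 13.36 and 12.58, and the median difference of diabetic mice was -0.13 (-0.20 without the second diabetic array). All 19 genes also lay lower on the first TSA than on the second diabetic array, by a median of 0.59. Of the 30 member probe sets 18 did, by a median of 0.11 over the 30, and 3 of 8 for Foxp1. The list takes each gene by its brightest probe set, whereas the 30 hold every member probe set, so these counts are not alike. By their brightest probe sets, every member but Pax5 and Ebf1 lay lower on the first TSA than on the second diabetic array. The 3 Foxp1 probe sets were 1435222_at, 1435221_at and 1438802_at, in which no 2 groups overlapped. B cell surface genes and most members both read lower in TSA-treated than in untreated non-diabetic mice. The part of B cell surface RNA in the members' levels was not tested.

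Plasma cell genes and the secretory genes that Xbp1 is known to switch on had medians nearer 0. Over all genes, 6.74% in diabetic and 16.0% in TSA-treated mice reached an unadjusted p under 0.05 in either direction. Of 12 plasma cell genes 0 were called, 5 were lower and 1 was higher in TSA-treated mice at an unadjusted p under 0.05, and their median was -0.11 in diabetic and -0.36 in TSA-treated mice. Jchain, the joining chain of antibodies, read 13.02 and 13.07, 13.01 and 13.12, and 12.89 and 12.76. Mzb1, a chaperone of antibody assembly, differed by -1.11 in TSA-treated mice and by -0.58 without the second TSA array, and Ell2, an elongation factor of plasma cells, by 1.05. Of 23 XBP1 target genes 0 were called, and 3 were lower in TSA-treated mice at an unadjusted p under 0.05. That is 13.0% of the list, below the 16.0% over all genes. The median of the 23 was 0.01 in diabetic mice (-0.08 without the second diabetic array). In TSA-treated mice it was -0.43, which was -0.12 without the second TSA array. Hspa5 (BiP), the main chaperone of the endoplasmic reticulum, read 11.16 and 11.25, 11.07 and 11.25, and 11.08 and 9.55, so that only the second TSA array was apart. Calr, the brightest gene of this list, read 11.42 and 11.35, 11.31 and 11.05, and 10.83 and 9.77, with both TSA arrays lower. Its TSA difference was -1.08, and -0.56 without the second TSA array. Of 6 germinal center genes 0 were called, with 1 higher and 1 lower at an unadjusted p under 0.05 in both diabetic and TSA-treated mice, and a median of 0.32 (0.15 without the second diabetic array) and 0.21, while the brightest of them, Basp1, was 0.84 lower in TSA-treated mice and drew the summed level of the list down.

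Markers of other spleen cells moved with the groups too. The summed level of 10 T cell markers was 11.77 and 11.77, 11.33 and 11.63, and 11.45 and 11.30, that of 8 neutrophil markers 14.38 and 14.50, 15.08 and 15.12, and 14.73 and 14.60, and that of 8 erythroid markers 13.68 and 13.71, 14.12 and 14.11, and 14.57 and 14.04. T cells express Foxp1, Bach2 and Ikzf3 as well. The summed erythroid and neutrophil levels were thus higher, and the summed T cell level lower, in both groups in which most members read lower. The sum of 5 NK cell markers was 8.09 and 8.21, 8.68 and 9.19, and 8.15 and 8.16, so it was higher in diabetic mice only. That of 8 red pulp macrophage markers was 11.84 and 11.84, 12.04 and 11.96, and 11.98 and 11.15, with the TSA arrays on both sides of the untreated non-diabetic arrays. The part of the cell mix in the members' levels was not tested. The summed neutrophil level follows S100a8 and S100a9, and 6 of the 8 neutrophil markers had a lower mean in TSA-treated than in untreated non-diabetic mice. None of these T cell, neutrophil or erythroid markers was called by limma. Of them, 3 T cell markers were lower and 3 neutrophil and 3 erythroid markers higher in diabetic than in untreated non-diabetic mice at an unadjusted p under 0.05. That p was reached by 6.74% of all genes in either direction.

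**Figure D5:**
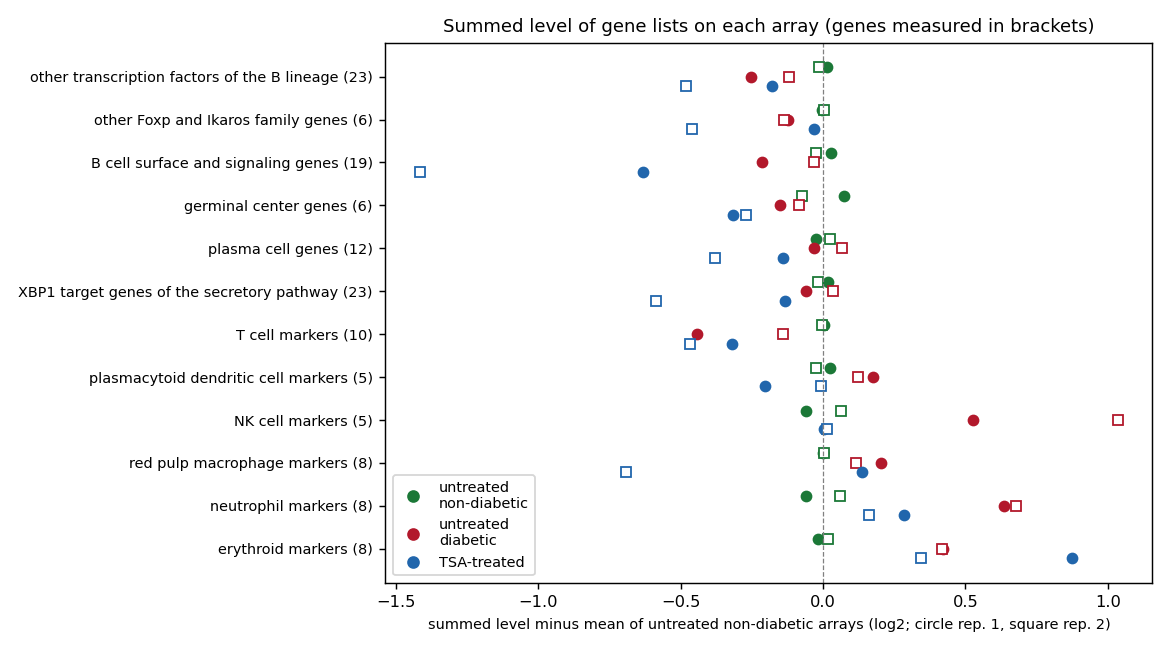
Summed level of each gene list but the exocrine pancreas markers (log2 of the sum of linear values) as its difference from the mean of the untreated non-diabetic arrays (horizontal axis), with a circle for the first and a square for the second array of each group. B cell surface genes lie farthest left on the TSA arrays, at summed levels of 13.36 and 12.58, and neutrophil markers lie to the right on the diabetic arrays.

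Genes whose levels went most closely with the members were found by their correlation over the 6 arrays, which come from 3 pools and share the order of their 3′ to 5′ gaps, so it is a description only. For Foxp1 1421141_a_at, which differed most in TSA-treated mice, they were Larp4 (r = 0.997), Tagln2 (r = 0.996), Tacc1 (r = 0.995), Eid1, Leprot and Pcmtd1 (each r = 0.994). The gene nearest to Ikzf3 1436649_at was Foxp1, through its brightest probe set 1435222_at (r = 0.997), so 2 members with tight duplicates kept the same profile. Spib went with Ppdpf (r = 0.999) and Irf5 (r = 0.998), Ebf1 with Plvap and Arid3b (r = 0.998 each), and Irf4 with Naxe (r = 0.999) and Pde4b (r = 0.998). Pou2af1 went with Dgka (r = 0.999) and Ilvbl (r = 0.997), Xbp1 with Sema4d (r = 0.997) and Slc9a3r1 (r = 0.995), Bach2 with Thrsp (r = 0.995) and Arpc2 (r = 0.993), Pax5 with Bicd2 (r = 0.994) and Bcl9l (r = 0.991), and Prdm1 with Tbc1d19 (r = 0.994) and Lyz2 (r = 0.990).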

How the data were processed

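RNA from spleens of NOD mice was labelled and hybridised to 6 Affymetrix mouse genome arrays, 2 labelings of 1 pool in each of 3 groups. The deposited values are log2 levels that the authors computed with RMA, which normalizes the arrays to a common distribution. The genome build of the probe annotation was not given in the sources used here. The array medians still ran from 3.79 to 3.95. Arrays have no read depth, their number limits the precision, and low levels compress differences. The 64 control probe sets were left out, and 34945 of the 45037 probe sets name 1 gene.

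The 6 arrays entered 1 linear model of the group means (limma 3.58.1, R 4.3.3; 3 residual degrees of freedom, 2.94 prior). P-values were adjusted by Benjamini-Hochberg over 45037 probe sets, with calls at an adjusted p under 0.05. The fit was tested on simulated data. The members and lists were chosen with earlier results of these data known. Named genes were all member probe sets, the called genes of largest difference, and the genes most correlated with a member at an SD of at least 0.5. Named list genes were taken from among the 3 brightest of a list, and not all of these were named. Of 155 list genes, 144 had a probe set of their own, and the others were not analysed here. Alternatives were a replicate block, leaving out each array, the 2 groups alone, other scaling, a filter on dim probe sets, an intensity trend, the mean of a gene's probe sets and the methods' t-test. The methods' local pooled error test was not run.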

Additional observations from a re-analysis of the deposited data

How the results depend on the processing

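Where TSA-treated were set against untreated non-diabetic mice, the 1 member call, Foxp1 1438802_at, was lost with a replicate block (0 calls), with quantile normalization again (0), a filter on dim probe sets (0), an intensity trend (0), the methods' t-test (0) and each gene taken as the mean of its probe sets (0). With only the 2 groups compared there were 4 calls, where 1.59% of all probe sets were called, and with median centring 1, where 0.0622% were. Member calls of fits that leave 1 array in a group are not counted. Without either untreated non-diabetic array, calls were lost over all probe sets, the member call included. The member call was also lost without the second TSA array. Without either diabetic array or without the first TSA array, calls rose in members and over all probe sets. In the last of these, the second TSA array stands alone and is assumed to vary like the other groups. Between diabetic and untreated non-diabetic mice, a member was called when the first diabetic array was left out. Between diabetic and TSA-treated mice, members were called when the first TSA array was left out. In both, calls over all probe sets rose as well.

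Without the first TSA array, list genes were called as well. In that fit calls over all probe sets rose in both comparisons with TSA-treated mice. Nothing is therefore read from the list counts that follow. Over the arrays left out, the TSA comparison with untreated non-diabetic mice ranged from 0 to 3 for other B lineage factors, 0 to 11 for B cell surface genes, 0 to 2 for plasma cell genes and 0 to 6 for XBP1 targets, and the comparison of diabetic with TSA-treated mice from 0 to 2, 0 to 8, 0 to 1 and 0 to 5. The replicate block changed no other call of the members and the 6 lists tested; over all probe sets it took the calls between diabetic and TSA-treated mice from 12 to 0. Replicate numbers name labelings and did not pair the arrays (correlation of deviations -0.34, -0.04 and -0.10). No member difference that was called turned its direction. Quantile normalization again moved 12 and median centring 2 of the single differences by more than the spread between duplicates. In a comparison added after seeing the data, the second diabetic against the first TSA array, the members' median difference was 0.11 in place of 0.62. With 2 labelings of 1 pool, no value here covers differences between mice.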
